A study of Mus musculus with 6 samples.

Results

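The genes described here are 7 of the 32285 genes counted in every library of the series, chosen by symbol from the gene list of the count matrices. They carry bile acids across the intestinal enterocyte or belong to the farnesoid X receptor (FXR) response to those bile acids. Slc10a2 takes bile acids up from the lumen, Fabp6 binds them in the cytosol, and Slc51a with Slc51b releases them at the basolateral side. Nr1h4 encodes FXR, and Nr0b2 and Fgf15 are its best known targets. All 7 symbols matched 1 gene each. The 6 libraries were made from jejunal epithelium of male wildtype C57BL/6J mice, about 30 weeks old, fasted overnight and collected 5 weeks after surgery. LFD sham mice had been kept on a low-fat diet for 16 weeks and HFD sham mice on a high-fat diet for as long, and both underwent a sham operation. HFD VSG mice had the high-fat diet and vertical sleeve gastrectomy, a resection that leaves a narrow sleeve of stomach. Each group gave 1 library from a suspension labelled crypts and 1 from a suspension labelled villi, pooled from 3 LFD sham, 3 HFD sham or 2 HFD VSG mice. Crypts and villi were separated from the same jejunal segments, so the crypt- and villus-labelled libraries of a group share their mice, and the same order under both labels is not a second observation. Since no group had a second library under the same label, no difference between groups could be tested, and the 95% intervals given below cover counting error only, not the spread between mice.

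Bile acids are made in the liver, act as detergents for dietary fat and are largely recovered in the distal small intestine, where the apical uptake transporter, its cytosolic carrier and the basolateral exporter are strongest. Bile acids that enter the enterocyte bind FXR, which pairs with retinoid X receptors on DNA. FXR raises the carrier, the exporter subunits, the corepressor SHP (encoded by Nr0b2) and the hormone FGF15, which travels to the liver and lowers bile acid synthesis, while SHP and FGF15 also hold back uptake. The jejunum lies upstream of the segment where this system is most active.

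The classic DNA element for FXR is an inverted repeat of the hexamer AGGTCA with a spacer of 1 base, called IR-1 and written AGGTCANTGACCT, which reads the same on both strands. It was searched in the 250 bases before the RefSeq start site (GRCm38.p6) of the 6 members with a promoter entry, all but Fgf15. The RefSeq start of Nr1h4 lies 26927 bases inside the GENCODE gene whose coordinates are given below, so its window sits at an internal start, and those of Slc51b and Slc10a2 lie 182 and 64 bases inside. The promoter of Fabp6 is shown because it came closest to this element. Capitals mark the 2 stretches of chr11:43601563-43601812, read on the minus strand, that matched IR-1 with 2 mismatches each.
Fabp6 promoter: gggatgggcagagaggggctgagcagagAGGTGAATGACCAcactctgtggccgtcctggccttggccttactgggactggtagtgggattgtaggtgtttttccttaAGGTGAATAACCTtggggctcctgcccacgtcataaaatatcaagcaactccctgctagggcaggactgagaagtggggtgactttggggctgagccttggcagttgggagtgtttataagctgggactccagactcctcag
The best match of each searched member is given next, where capitals are bases that match IR-1 and lower case marks mismatches.
Slc10a2, 4 mismatches: AGtTCATTatCaT
Fabp6, 222 to 210 bases before the start, 2 mismatches: AGGTgAATGACCa
Fabp6, 142 to 130 bases before the start, 2 mismatches: AGGTgAATaACCT
Slc51a, 3 mismatches: AGGaCtTTGtCCT
Slc51b, 3 mismatches: gGGTCATTcACCc
Nr1h4, 4 mismatches: tGGcatTTGACCT
Nr0b2, 4 mismatches: ActTCATTGACta
Nr0b2, 4 mismatches: tGGcCAGTccCCT
Among 32851 RefSeq promoter windows of the same length, 0.959% held a match with at most 2 mismatches and 4 windows (0.0122%) held 2 or more such matches. At most 3 mismatches were reached in 9.63% of windows, so the matches of Slc51a and Slc51b are of a kind found in many promoters. The hexamer AGGTCA on either strand, which overlaps IR-1, was present in 14% of windows and occurred in those of Slc51a, Slc51b and Nr1h4. A match describes letters in this window and is not evidence of binding.

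Called barcodes numbered 7765 to 12012 per library, with 60522766 to 155522445 UMIs in them (UMIs, unique molecular identifiers, count captured transcripts). After filters 2912 to 4661 cells remained. Any pair of libraries shared 17 to 43 called barcodes, at most 0.45% of the smaller one. Cells were clustered without the 7 genes and named only from marker lists. Enterocyte-like cells, 687 to 2165 per library, fell into clusters 0, 3, 7, 10 and 15. Clusters 1, 2, 5, 6 and 18 stayed unnamed and their cells are not in the enterocyte-like sums, although 5 of the 12 enterocyte markers counted in clusters 1 and 2 and 9 in cluster 6, whose 1573 cells counted 11 of 12 Paneth markers at a low level. The crypt and villus labels did not follow the markers. Stem-like cells were 1.48, 2.4 and 3.71% of crypt-labelled and 8.71, 4.36 and 12.9% of villus-labelled LFD sham, HFD sham and HFD VSG libraries. Early progenitor-like and Paneth-like shares were also higher in the villus-labelled library of each group. Cluster 7, led by the villus tip genes Ada, Nt5e and Slc28a2, held 389 cells of HFD VSG crypts and 29 of HFD VSG villi. The libraries are therefore called crypt-labelled and villus-labelled, and comparisons were made within a label. Of the list of proximal genes, Gata4, a regulator of proximal identity, was at 37 to 47.7 CPM (its UMIs scaled to all UMIs of the summed cells) in enterocyte-like cells. Lct, lactase, was at 486 to 1342 CPM there, while Cybrd1 had 0 to 5 and Slc40a1 2 to 20 UMIs per library. Genes of the distal list were also present, with Osr2 at 64.6 to 74.8, Amn at 208 to 253 and Cubn at 66.9 to 553 CPM. The median enterocyte-like cell of HFD VSG villi had 33682 UMIs, against 10408 to 16975 in the other libraries.

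Each member was measured by 3′ UMIs, so levels of one gene can be compared across cells but levels of different genes cannot. Among the named classes, over the 6 libraries, Slc10a2, Fabp6, Slc51a, Slc51b and Nr0b2 had their highest mean level in enterocyte-like cells. Nr1h4 and Fgf15 had theirs in early progenitor-like cells. For Fgf15 this did not hold in the HFD VSG libraries, where enterocyte-like cells were at 1.62 and 2.73 CPM and early progenitor-like cells at 1.22 and 1.32 CPM, crypt-labelled before villus-labelled. The next class was early progenitor-like for Fabp6 (69.5 CPM in enterocyte-like cells and 11.9 CPM there), Slc51a (236 and 158 CPM) and Slc51b (217 and 78.4 CPM). For Slc10a2 the next class was EEC-like, at 1.34 CPM against 8.04 CPM. Unnamed clusters were outside this ranking, and some lay above the enterocyte-like mean. Cluster 1 averaged 87.6 CPM of Fabp6, 293 CPM of Slc51a and 232 CPM of Slc51b. Cluster 2 averaged 10.9 CPM of Slc10a2 and 68.3 CPM of Fabp6. Cluster 5 lay below that mean, at 1.84 CPM of Slc10a2 and 3.02 CPM of Fabp6. Immune-like cells, which should lack this pathway, averaged 0.0995 CPM of Slc10a2, 49.4 CPM of Slc51a and 29.5 CPM of Slc51b. Droplets with fewer than 100 UMIs, which hold free RNA, carried Slc51a at 113 to 178 CPM, Slc51b at 101 to 205 CPM, Slc10a2 at 0.555 to 3.92 CPM and Fabp6 at 12.2 to 93.6 CPM. Enterocyte markers in immune-like cells put the share of free RNA in their UMIs at 0.0955 to 0.28. The class means are not corrected for it, and the Fabp6 of early progenitor-like cells, 4.27 to 29.9 CPM by library, may be free RNA in part. Nr0b2 and Fgf15 were not seen in any immune-like or tuft-like cell.

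**Figure D1:**
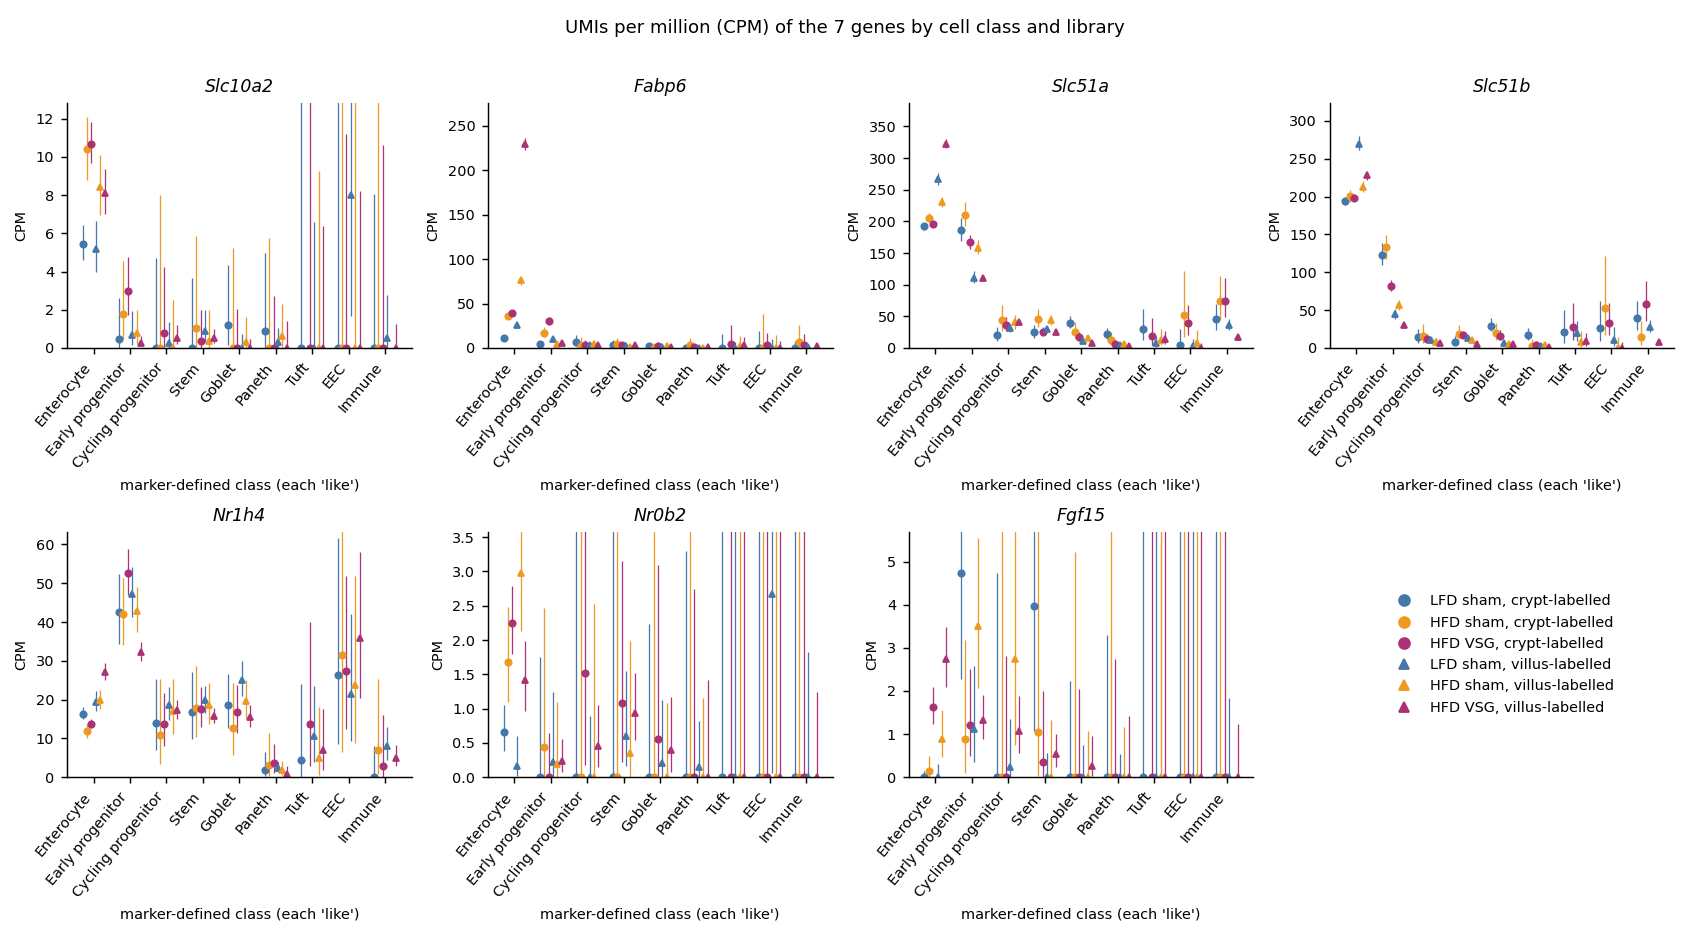
CPM (UMIs scaled to all UMIs of the class, linear axis) of each gene in each marker-defined class, for the 6 libraries (colour, group; circles crypt-labelled, triangles villus-labelled; classes under 20 cells left out). Bars are exact 95% Poisson intervals, some of which run past the top of the panel; Slc10a2 and Fabp6 stand out in enterocyte-like cells and Nr1h4 in early progenitor-like cells (32.3 to 52.7 CPM).

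Slc10a2 (chromosome 8, 5083219 to 5105351, minus strand, GRCm38, protein-coding) encodes the sodium-dependent transporter that brings bile acids into the enterocyte. In crypt-labelled enterocyte-like cells it was at 5.46 CPM in LFD sham (95% interval 4.6 to 6.43), 10.4 CPM in HFD sham (8.79 to 12.1) and 10.7 CPM in HFD VSG (9.68 to 11.8). In villus-labelled enterocyte-like cells it was at 5.19 CPM in LFD sham (3.98 to 6.65), 8.42 CPM in HFD sham (6.94 to 10.1) and 8.11 CPM in HFD VSG (7 to 9.35). LFD sham was the lowest library under both labels, and HFD sham and HFD VSG had overlapping intervals. The sums were small, 62 to 391 UMIs per library, and 3.3 to 13.1% of enterocyte-like cells held a Slc10a2 UMI. With each cell thinned to 1500 UMIs these shares were 0.655, 1.65 and 1.25% in crypt-labelled LFD sham, HFD sham and HFD VSG, and 0.412, 1.39 and 1.46% in the villus-labelled libraries. Immune-like cells of the 6 libraries held 1 Slc10a2 UMI in all.

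Slc10a2 was concentrated in a small set of cells. Cluster 3, an enterocyte-like cluster of 1777 cells, held 51.1% of the Slc10a2 UMIs of all epithelial cells with 7.94% of the cells. Unnamed cluster 1, led by the antimicrobial lectins Reg3b and Reg3g, held 18.2%. That was near its share, as it had 13.3% of the cells and 16.3% of all epithelial UMIs. In cluster 3 the level was 18.9, 36.9 and 37.4 CPM in crypt-labelled LFD sham, HFD sham and HFD VSG, and 15.1, 34.2 and 25.2 CPM in the villus-labelled libraries, so LFD sham was again lowest. Cluster 0, the largest enterocyte-like cluster, had 0.186 to 1.93 CPM. Expressed as log2 ratios over all enterocyte-like cells, HFD sham exceeded LFD sham by 0.92 (0.59 to 1.26) in crypt-labelled and 0.70 (0.24 to 1.17) in villus-labelled libraries. HFD VSG differed from HFD sham by 0.05 (-0.22 to 0.33) and -0.05 (-0.40 to 0.30). Over all epithelial cells this surgery ratio was 0.24 (0.01 to 0.47) and -1.09 (-1.35 to -0.83), and in cluster 1 of the villus-labelled libraries it was -1.19 (-1.82 to -0.58), so there HFD VSG lay below HFD sham. The diet ratio depended on the cells counted. In crypt-labelled libraries it was -0.99 (-1.65 to -0.35) in cluster 1 alone and -0.04 (-1.14 to 0.99) in cluster 0 alone. The latter, from 13 against 24 UMIs, shows no direction. Over all epithelial cells the ratio of HFD VSG to LFD sham was -0.04 (-0.36 to 0.28) in villus-labelled libraries.

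Fabp6 (chromosome 11, 43596049 to 43601540, minus strand) encodes the ileal bile acid binding protein, the cytosolic carrier between uptake and export. In crypt-labelled enterocyte-like cells it was at 11 CPM in LFD sham (286 UMIs), 35.5 CPM in HFD sham (527 UMIs) and 39.6 CPM in HFD VSG (1447 UMIs). In villus-labelled enterocyte-like cells it was at 25.5 CPM in LFD sham (305 UMIs), 75.9 CPM in HFD sham (1019 UMIs) and 230 CPM in HFD VSG (5379 UMIs). LFD sham was the lowest and HFD VSG the highest under both labels, and each villus-labelled library lay above its crypt-labelled partner, by a log2 ratio of crypts to villi of -1.21 in LFD sham, -1.10 in HFD sham and -2.53 in HFD VSG. Immune-like cells held 0 to 7.03 CPM. Droplets with free RNA carried Fabp6 at 13, 16.4 and 38.5 CPM in the crypt-labelled and 12.2, 21.8 and 93.6 CPM in the villus-labelled LFD sham, HFD sham and HFD VSG libraries, the same order as the cells. Free RNA subtracted at the share estimated in immune-like cells left 31.2 CPM in HFD sham crypts and 28.9 CPM in HFD VSG crypts, so their order turned. At the fractions the study stated they were at 30.9 and 38.3 CPM.

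These levels rested on a handful of cells with very many Fabp6 molecules. Cells with 10 or more Fabp6 UMIs numbered 6, 9 and 24 among the crypt-labelled enterocyte-like cells of LFD sham, HFD sham and HFD VSG, and 11, 14 and 29 among the villus-labelled ones. They made up 0.302% (exact binomial interval 0.111 to 0.656), 0.676% (0.31 to 1.28) and 1.11% (0.712 to 1.64) of the crypt-labelled cells. Among villus-labelled cells they made up 1.13% (0.567 to 2.02), 1.38% (0.759 to 2.31) and 4.22% (2.84 to 6.01). HFD VSG was highest under both labels, and only its villus-labelled interval lay apart from those of both sham libraries of the same label. The same cells carried 60.5% of the Fabp6 UMIs in LFD sham crypts and 83.3 to 97.7% in the other libraries. The richest cell held 86, 152 and 203 UMIs in crypt-labelled LFD sham, HFD sham and HFD VSG and 53, 200 and 1323 in the villus-labelled libraries, where the next cell of HFD VSG held 1221. Without the 2 richest cells of each library the level was 6.78, 17.9 and 28.9 CPM and, villus-labelled, 18, 47.5 and 121 CPM, in the same order. All cells with fewer than 10 Fabp6 UMIs together were at 3.42 to 6.03 CPM in every library. The number 10 was chosen after the values were seen, and 2 to 10 cells per library had 5 to 9 UMIs and 0 to 6 had 10 to 14. It was applied to counts not scaled to depth. The median enterocyte-like cell of HFD VSG villi had 33682 UMIs, against 10408 in LFD sham villi and 13985 in HFD sham villi.

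**Figure D2:**
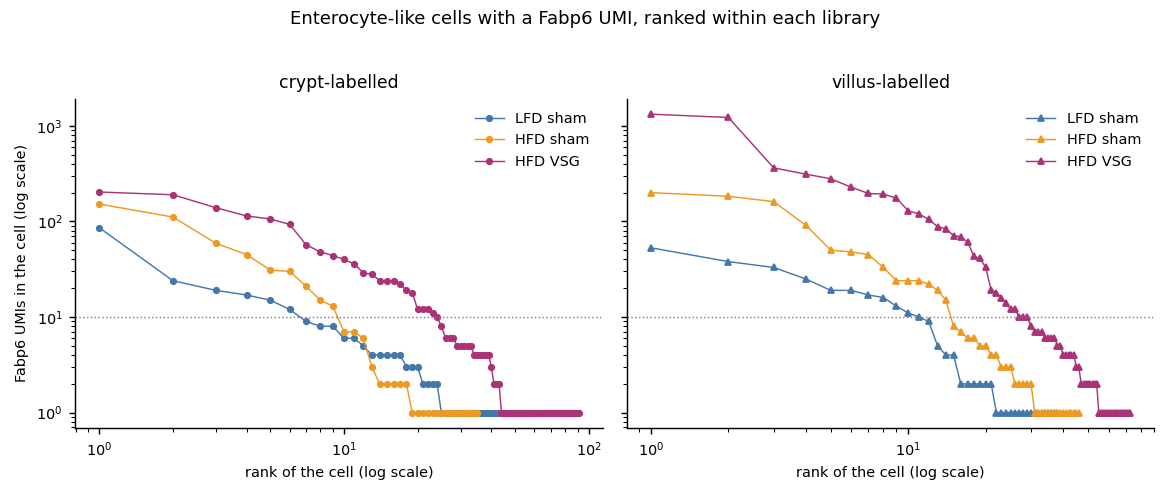
Fabp6 UMIs of each enterocyte-like cell with at least 1 such UMI (log axis) against its rank in its library (log axis), crypt-labelled left and villus-labelled right, with 10 UMIs dotted. At each rank where the HFD VSG cell holds 2 or more UMIs it lies above the sham cells of that rank, while further ranks are tied at 1 UMI; counts are not scaled to depth or to the number of cells, both of which differ between libraries, and the 2 richest HFD VSG villi cells reach 1323 and 1221 UMIs.

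Thinned to 1500 UMIs per cell, the share of enterocyte-like cells with Fabp6 was 0.604% in LFD sham (0.313 to 1.05), 0.601% in HFD sham (0.26 to 1.18) and 1.48% in HFD VSG (1.01 to 2.08) for crypt-labelled libraries. For villus-labelled libraries it was 1.44% (0.79 to 2.41), 2.28% (1.45 to 3.4) and 5.39% (3.82 to 7.35), against 0 to 0.441% in immune-like cells. On this scale the 2 crypt-labelled sham libraries did not differ beyond counting error, and the HFD sham excess seen in CPM was in UMIs per positive cell.

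By cluster, 42.7% of the epithelial Fabp6 UMIs lay in cluster 3 and 35.8% in unnamed cluster 1. These clusters held 7.96 and 16.3% of all epithelial UMIs. In cluster 3 Fabp6 was at 49, 146 and 174 CPM in crypt-labelled LFD sham, HFD sham and HFD VSG and at 76.8, 330 and 580 CPM in the villus-labelled libraries, the order seen over all enterocyte-like cells. Cluster 1 had another order, 122, 20.7 and 145 CPM in crypt-labelled and 67.6, 42.4 and 128 CPM in villus-labelled libraries, with HFD sham the lowest under both labels. Of the 751 Fabp6 UMIs of LFD sham crypts in that cluster 1 cell held 543. Without the richest cell of each library, an alternative chosen after the values were seen, cluster 1 was at 33.9, 12.6 and 103 CPM in crypt-labelled and 37.2, 35.2 and 83 CPM in villus-labelled libraries, where the log2 ratio of the sham libraries was -0.08 (-0.31 to 0.16). In cluster 3 of HFD VSG villi 1 cell held 1221 of 3754 UMIs. Clusters 10 and 15 of HFD VSG villi, with 29 and 32 cells, had 505 and 998 CPM, and 1 cell of cluster 15 supplied 1323 of its 1331 Fabp6 UMIs. Over all epithelial cells the number with 10 or more Fabp6 UMIs was 15, 13 and 46 in crypt-labelled and 22, 32 and 57 in villus-labelled LFD sham, HFD sham and HFD VSG. There the same LFD sham crypts cell held 543 of 1182 UMIs. Without the 2 richest cells of each library the epithelial levels were 11.4, 14.9 and 41.5 CPM and, villus-labelled, 12, 27.1 and 46.4 CPM.

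**Figure D3:**
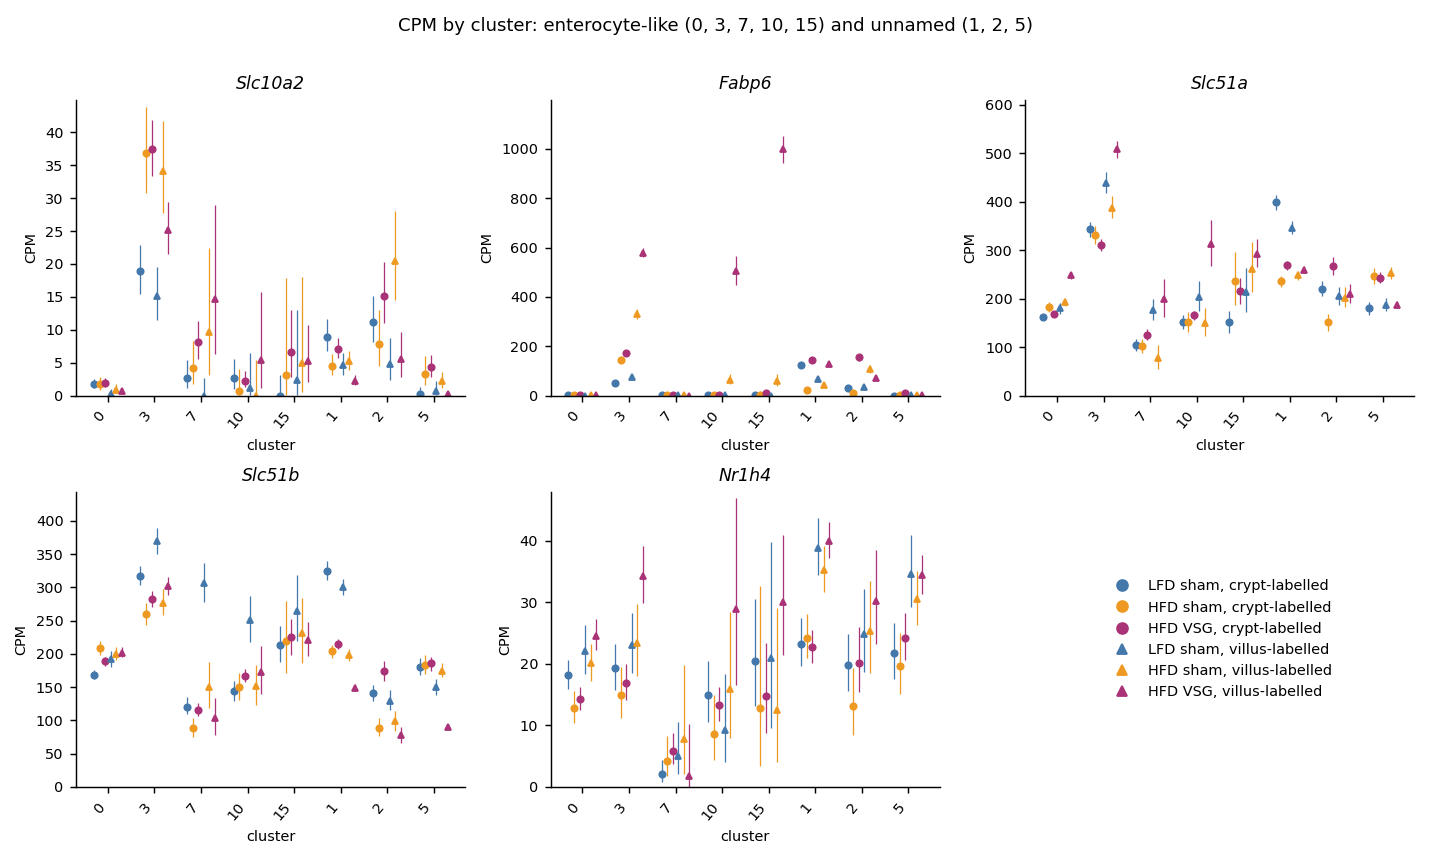
CPM (linear axis) of 5 of the genes in enterocyte-like clusters 0, 3, 7, 10 and 15 and in unnamed clusters 1, 2 and 5, for the 6 libraries (colour, group; circles crypt-labelled, triangles villus-labelled; clusters under 20 cells in a library left out). Bars are exact 95% Poisson intervals, some cut at the panel edge; Slc10a2 peaks in cluster 3 (15.1 to 37.4 CPM), Fabp6 is low in clusters 0 and 7, and Slc51a and Slc51b are spread over all clusters.

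The Fabp6 log2 ratio of HFD sham to LFD sham over enterocyte-like cells was 1.69 (1.48 to 1.90) in crypt-labelled and 1.57 (1.39 to 1.76) in villus-labelled libraries. HFD VSG to HFD sham was 0.16 (0.02 to 0.31) and 1.60 (1.5 to 1.69), and HFD VSG to LFD sham was 1.85 (1.67 to 2.04) and 3.17 (3.00 to 3.34). These intervals treat each UMI as independent and are too narrow where a few cells supply most UMIs. The diet ratio depended on the cells counted: in crypt-labelled libraries it was -0.10 over all epithelial cells and -2.55 in cluster 1, in both of which 1 LFD sham cell supplied 543 UMIs and the richest cells left out gave 0.46 (0.30 to 0.63) and -1.43 (-1.79 to -1.07), in villus-labelled libraries it was -0.06 when clusters were drawn at resolution 0.8, and it was 4.52 and 3.71 when cells were held to 10% mitochondrial UMIs. HFD VSG exceeded LFD sham over all epithelial cells as well, by 1.16 and 1.93.

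Cells rich in Fabp6 also carried the rest of the transport chain. Enterocyte-like cells with 10 or more Fabp6 UMIs had Slc10a2 at 105, 117 and 137 CPM in crypt-labelled LFD sham, HFD sham and HFD VSG, where cells without Fabp6 had 4.06, 5.62 and 7.46 CPM. In villus-labelled libraries Slc10a2 was at 66.3, 215 and 84.3 CPM in the rich cells and at 2.72, 3.34 and 3.53 CPM in cells without Fabp6. Uptake transporter and carrier were high in the same cells in each of the 6 libraries, from 12 to 75 Slc10a2 UMIs per library in the rich cells. The exporter subunit Slc51a was at 507 to 845 CPM in the rich cells and 181 to 294 CPM in those without Fabp6, and Slc51b was at 341 to 553 CPM against 189 to 266 CPM. Neither subunit's ranges overlapped. Nr1h4 rested on 1 to 53 UMIs in the rich cells (4.49 to 59.6 CPM against 11.7 to 24.8 CPM) and was higher in them in 5 of 6 libraries. Read the other way, within cluster 3 the share of cells with Fabp6 was 28.8, 37.3 and 28.9% among crypt-labelled cells with a Slc10a2 UMI and 7.53, 3.29 and 8.55% among those without, and 48.3, 50 and 50.7% against 6.91, 10.9 and 16.8% among villus-labelled cells. Cells with Slc10a2 were deeper in the crypt-labelled libraries and in LFD sham villi (medians there 18532 against 10479 UMIs), but not in HFD sham and HFD VSG villi. In cluster 0, with 1 to 29 cells with Slc10a2 per library, the share was 0% except in HFD VSG villi (14.3%). It was 0.331 to 2.58% among other cells of cluster 0.

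Fabp1, the liver-type fatty acid carrier of the proximal intestine, ran opposite. It was at 4351 to 8995 CPM in cells rich in Fabp6 and 15438 to 24082 CPM in cells without, with no overlap between the ranges. Gata4 was at 16.6 to 69.7 CPM in the rich cells, on 3 to 22 UMIs, and 37.6 to 47.6 CPM in the others. Osr2, from the list of distal genes, was at 58.4 to 169 CPM against 62.1 to 71.8 CPM. The median depth of the rich cells was 25508, 18700 and 22002 UMIs in crypt-labelled LFD sham, HFD sham and HFD VSG, against 11762, 10372 and 16884 UMIs in cells without Fabp6. It was 17008, 9396 and 28902 UMIs in the villus-labelled libraries, against 10252, 14000 and 33674 UMIs. The rich cells were thus deeper except in HFD sham and HFD VSG villi. Of the rich cells 6, 9 and 23 in crypt-labelled and 11, 12 and 27 in villus-labelled LFD sham, HFD sham and HFD VSG lay in cluster 3. Cells without Fabp6 came from all enterocyte-like clusters, so the Slc51a, Slc51b and Fabp1 contrasts also set cluster 3 against the others. The proximal list, which includes Fabp1, was at 13241 CPM in cluster 3 and 25610 CPM in cluster 0. The part of cluster, of jejunal position or of depth in the Fabp6 pattern was not tested.

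**Figure D4:**
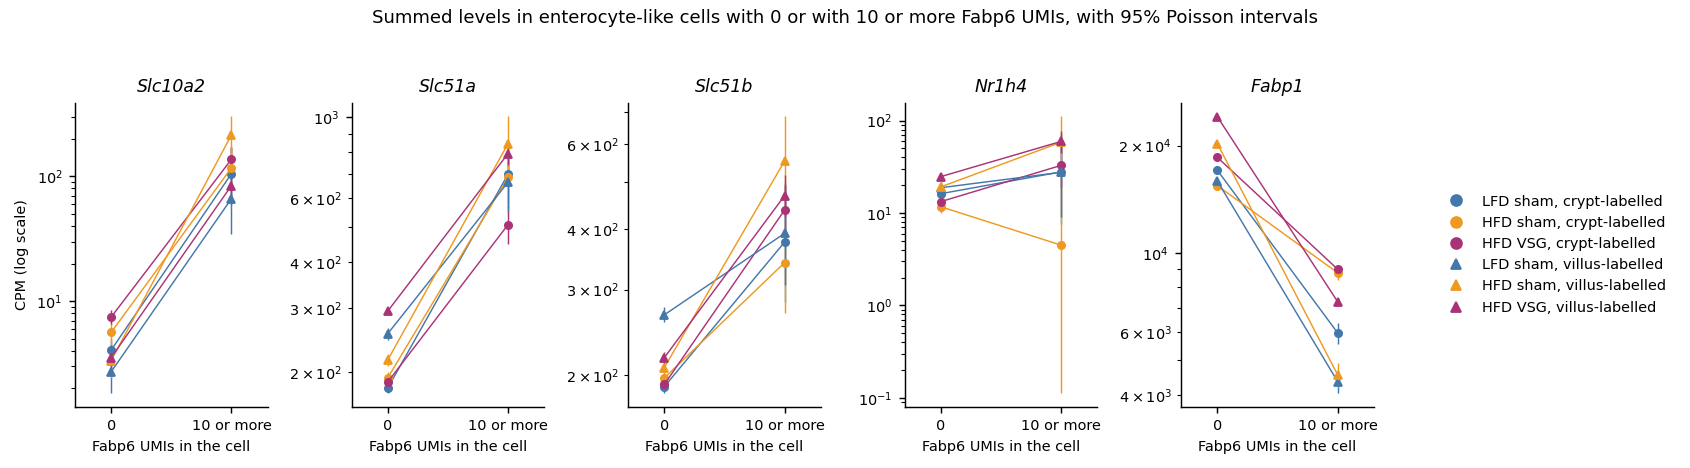
Summed CPM (log axes with their own ranges) of Slc10a2, Slc51a, Slc51b, Nr1h4 and Fabp1 in enterocyte-like cells with 0 and with 10 or more Fabp6 UMIs, 1 line per library (colour, group; circles crypt-labelled, triangles villus-labelled), with exact 95% Poisson intervals. All 6 lines run upward for Slc10a2, Slc51a and Slc51b and downward for Fabp1; Nr1h4 runs downward in HFD sham crypts, on 1 UMI.

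Slc51a (chromosome 16, 32474504 to 32487879, minus strand) and Slc51b (chromosome 9, 65412714 to 65422955, minus strand) encode the alpha and beta subunits of the organic solute transporter, which releases bile acids towards the blood and works only as the pair. Slc51a in crypt-labelled enterocyte-like cells was at 192 CPM in LFD sham, 206 CPM in HFD sham and 196 CPM in HFD VSG. In villus-labelled cells it was at 267, 230 and 323 CPM in the same groups. The crypt-labelled libraries lay close together, and among the villus-labelled ones HFD VSG was highest and HFD sham lowest. Slc51b was at 194, 201 and 198 CPM in crypt-labelled and at 270, 213 and 228 CPM in villus-labelled LFD sham, HFD sham and HFD VSG, with LFD sham villi highest. Both genes were widespread: 67.8 to 96.7% of enterocyte-like cells held a Slc51a UMI and 68.6 to 94.9% a Slc51b UMI, against 5.51 to 16.9% and 4.41 to 14.2% of immune-like cells, whose median depth was lower (2026 to 5799 UMIs).

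Thinned to 1500 UMIs the share of enterocyte-like cells with Slc51a was 19.6, 22.5 and 24.9% in crypt-labelled and 26, 24.2 and 38.9% in villus-labelled LFD sham, HFD sham and HFD VSG, so HFD VSG villi again stood highest. For Slc51b it was 22.6, 22.2 and 22.2% and 28.6, 27.8 and 27.1%. The exporter was therefore not confined to the clusters that held Slc10a2 and Fabp6: Slc51a was at 162 to 248 CPM in cluster 0 and 311 to 508 CPM in cluster 3, and Slc51b at 169 to 209 CPM and 260 to 370 CPM. In early progenitor-like cells Slc51a was at 111 to 210 CPM and Slc51b at 30.8 to 133 CPM. These levels are not corrected for free RNA, which carried Slc51a at 113 to 178 CPM and Slc51b at 101 to 205 CPM. In enterocyte-like cells no Slc51a or Slc51b ratio between groups passed 0.5 on the log2 scale: the diet ratio of Slc51a was 0.10 (0.04 to 0.17) in crypt-labelled and -0.22 (-0.29 to -0.14) in villus-labelled libraries, and its surgery ratio, HFD VSG to HFD sham, was -0.07 (-0.13 to -0.01) and 0.49 (0.43 to 0.55). For Slc51b the diet ratio was 0.05 (-0.02 to 0.11) and -0.34 (-0.41 to -0.27) and the surgery ratio -0.02 (-0.08 to 0.05) and 0.10 (0.03 to 0.16). This was not so in other sets of cells. All-epithelial sums mix classes whose shares differ: of the cells that passed the filters in HFD VSG and HFD sham villi, 16.1 and 27.2% were enterocyte-like, 15.1 and 7.48% early progenitor-like, 12.9 and 4.36% stem-like and 5.99 and 1.69% cycling progenitor-like, and the part of these shares was not tested. Over all epithelial cells of the villus-labelled libraries Slc51b in HFD VSG was lower than in HFD sham by a log2 ratio of -0.63 (-0.67 to -0.58) and than in LFD sham by -0.52 (-0.56 to -0.48), and the Slc51a surgery ratio was -0.17 (-0.21 to -0.14). In cluster 1 the crypt-labelled diet ratio was -0.76 for Slc51a and -0.67 for Slc51b, and Slc51b in HFD VSG to LFD sham was -1.01 in villus-labelled libraries.

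Nr1h4 (chromosome 10, 89454234 to 89533585, minus strand) encodes FXR itself. It was highest in early progenitor-like cells, at 42.7, 42 and 52.7 CPM in crypt-labelled and 47.3, 42.9 and 32.3 CPM in villus-labelled LFD sham, HFD sham and HFD VSG. In enterocyte-like cells it was at 16.4, 11.8 and 13.8 CPM (426, 176 and 502 UMIs) in crypt-labelled and 19.5, 19.9 and 27.2 CPM (233, 267 and 637 UMIs) in villus-labelled libraries. Early progenitor-like cells exceeded enterocyte-like cells in each library, by the least in HFD VSG villi. The villus tip cluster 7 had 1.84 to 7.73 CPM, below the 12.8 to 24.6 CPM of cluster 0 in every library, while unnamed cluster 1 had 22.8 to 40 CPM. Unlike Slc10a2 and Fabp6, Nr1h4 was not concentrated in cluster 3, where it was at 14.9 to 34.3 CPM. Between groups the enterocyte-like log2 ratios stayed within 0.5: HFD sham to LFD sham was -0.47 (-0.73 to -0.21) and 0.03 (-0.23 to 0.29), HFD VSG to HFD sham 0.22 (-0.03 to 0.47) and 0.45 (0.24 to 0.66), and HFD VSG to LFD sham -0.25 (-0.44 to -0.06) and 0.48 (0.26 to 0.70), crypt-labelled before villus-labelled.

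Nr0b2 (chromosome 4, 133553376 to 133556536, plus strand) encodes the small heterodimer partner SHP, a nuclear receptor without a DNA-binding domain that represses other receptors. Its enterocyte-like sums were 17, 25 and 82 UMIs in crypt-labelled and 2, 40 and 33 UMIs in villus-labelled LFD sham, HFD sham and HFD VSG, or 0.654, 1.68 and 2.25 CPM and 0.167, 2.98 and 1.41 CPM. LFD sham was lowest under both labels in these sums. Cluster 0 held 48.3% of the epithelial Nr0b2 UMIs, with 17.5% of all epithelial UMIs. Cluster 3 had 0 to 1.48 CPM, so this FXR target was seen mostly outside the cluster that led in Slc10a2 and Fabp6. The diet ratio was 1.36 on the log2 scale (0.42 to 2.34) in crypt-labelled libraries. In villus-labelled libraries the 40 UMIs of HFD sham against 2 of LFD sham gave a 17.8-fold ratio of CPM with a counting interval of 4.62 to 152, and the 33 of HFD VSG against the same 2 gave 8.42-fold (2.15 to 72.4). The 2 UMIs of LFD sham villi were in 1 cell. Summed over all epithelial cells, the villus-labelled libraries held 14, 67 and 72 UMIs, and the folds were smaller, 5.29 (2.94 to 10.2) for HFD sham and 2.29 (1.28 to 4.4) for HFD VSG against LFD sham. In cluster 1 the villus-labelled sums were 1 UMI in LFD sham and 4 in HFD VSG, too few for a direction. HFD VSG to HFD sham was 0.42 (-0.24 to 1.13) and -1.08 (-1.79 to -0.38). Cells with Nr0b2 were 0.103 to 3.36% of enterocyte-like cells, against 0 of the 454 immune-like cells of HFD VSG villi.

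Fgf15 (chromosome 7, 144896531 to 144900953, plus strand) encodes the hormone that the intestine sends to the liver. It was not seen in LFD sham enterocyte-like cells: 0 UMIs in 1986 crypt-labelled cells, where the limit of 3 UMIs is 0.115 CPM, and 0 in 971 villus-labelled cells. HFD sham had 2 UMIs in crypt-labelled and 12 in villus-labelled cells, and HFD VSG had 59 and 64. The most in 1 cell was 12, in HFD VSG villi, and 33 and 30 HFD VSG cells held the gene. With 3 UMIs entered for each 0 of LFD sham, HFD VSG was 14-fold higher in crypt-labelled and 10.9-fold higher in villus-labelled libraries. Intervals computed as if those 3 had been counted were 4.57 to 69.9 and 3.56 to 54.2. They are not the counting intervals of 59 and 64 against 0 UMIs. The 12 UMIs of HFD sham villi against an entered 3 gave an interval of 0.961 to 19.7. As it treats the 3 as counted, it does not decide whether 12 against 0 UMIs exceeds counting error. In all epithelial cells together LFD sham held 14 and 19 UMIs, and HFD VSG lay above it by less, 4.11-fold (2.33 to 7.83) in crypt-labelled and 3.4-fold (2.1 to 5.81) in villus-labelled libraries. HFD VSG to HFD sham was 12-fold (counting interval 3.18 to 102) from 59 against 2 UMIs in crypt-labelled libraries and 1.61 on the log2 scale (0.71 to 2.64) in villus-labelled libraries. This difference depended on the cells counted. Over all epithelial cells HFD VSG to HFD sham was 2.49-fold (1.45 to 4.54) in crypt-labelled libraries but 0.09 on the log2 scale (-0.37 to 0.56) in villus-labelled ones. In cluster 1 it was -0.62 (-1.93 to 0.70) and -0.68 (-1.69 to 0.34), intervals that include 0. Thinned to 1500 UMIs per cell, 4 crypt-labelled HFD VSG cells and 0 HFD sham cells held Fgf15, too few for a ratio. Fgf15 was not absent from LFD sham altogether, as early progenitor-like cells held 10, 2 and 7 UMIs in crypt-labelled and 5, 18 and 28 UMIs in villus-labelled LFD sham, HFD sham and HFD VSG, with 70% of those in LFD sham crypts in 1 cell. In unnamed cluster 5 LFD sham villi held more than the other villus-labelled libraries, 10 UMIs against 1 in HFD sham and 5 in HFD VSG, and HFD VSG to LFD sham was -2.75 on the log2 scale there (-4.65 to -1.06). Of the epithelial Fgf15 UMIs 24.9% lay in cluster 3, 20.8% in early progenitor-like cluster 4 and 18.4% in cluster 1. These clusters held 7.96, 10.7 and 16.3% of all epithelial UMIs, so cluster 1 was near its share.

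**Figure D5:**
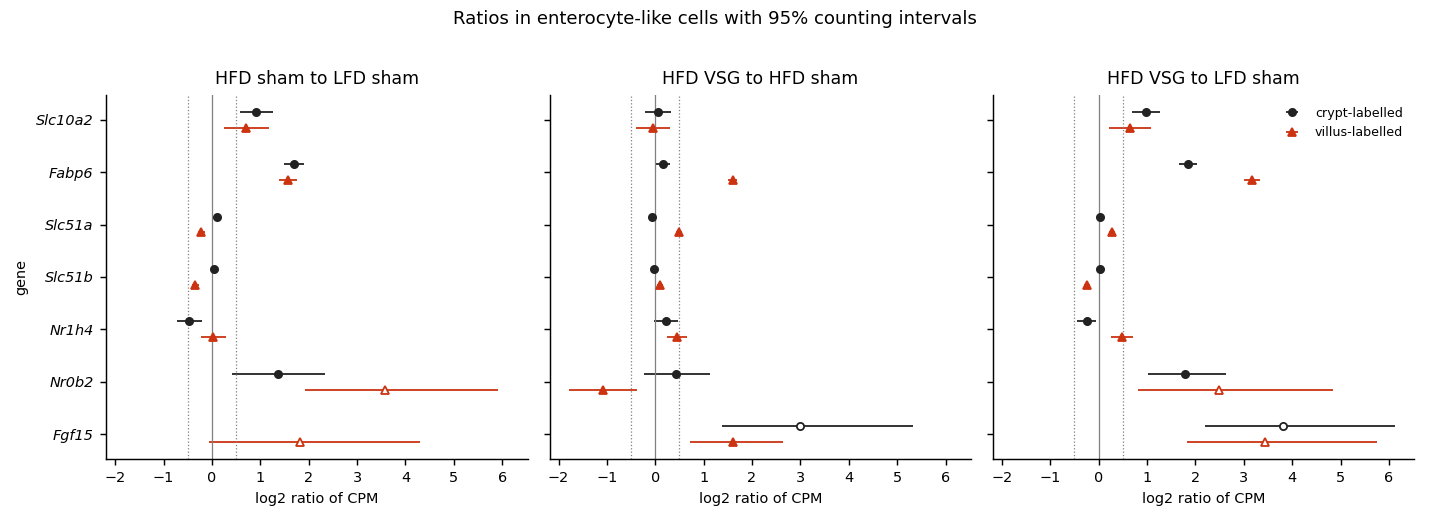
Log2 ratios of CPM in enterocyte-like cells for the 3 comparisons, crypt-labelled (black circles) and villus-labelled (red triangles), with 95% counting intervals, 0 as a solid and 0.5 as dotted lines. Open symbols and their intervals enter sums under 3 UMIs as 3, as if counted, while folds in the text for sums of 2 UMIs use the counts themselves. Fabp6 lies right of 0.5 in each comparison except HFD VSG to HFD sham in crypt-labelled libraries (0.16). Slc51a and Slc51b lie within 0.5 throughout.

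The size of these differences was set against all genes with a mean of 50 or more UMIs in enterocyte-like cells of a label, a level that 5 of the 7 members reached (all but Nr0b2 and Fgf15). From LFD sham to HFD sham, Slc10a2 and Fabp6 were higher by more than 0.5 under both labels and none of the 5 was lower. Of all genes 5.21% were higher and 7.51% lower by that much in crypt-labelled libraries, and 6.72% higher and 7.44% lower in villus-labelled libraries. From HFD sham to HFD VSG none of the 5 passed 0.5 in crypt-labelled libraries, where 7.26% of all genes were higher and 2.19% lower, and Fabp6 alone was higher in villus-labelled libraries, where 16.9% were higher and 15.7% lower. From LFD sham to HFD VSG Slc10a2 and Fabp6 were again higher under both labels, against 10.3% of all genes higher and 4.72% lower in crypt-labelled and 21.9% and 19.5% in villus-labelled libraries. The comparisons to LFD sham share that library, as do those that use HFD VSG or HFD sham, so they are not independent. With Nr0b2 and Fgf15 counted from their ratios or limits, the members higher by more than 0.5 numbered 3 and 4 for diet, 1 and 2 for surgery, and 4 and 4 for HFD VSG to LFD sham, crypt-labelled before villus-labelled, and 1 member, Nr0b2, was lower, in the villus-labelled surgery comparison. Nr0b2 and Fgf15 are under the limit of 50 UMIs, so the shares of all genes do not cover this count.

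HFD VSG villi were lower in genes of the villus top than both other villus-labelled libraries, whereas genes of the villus bottom had no common order. All 6 listed villus top genes were lower in its enterocyte-like cells than in HFD sham by more than 0.5 (median log2 ratio -1.22), 4 of 6 middle genes were lower (Slc2a2, Slc15a1, Lct and Apob; list median -0.71), and 3 of 7 bottom genes were higher (Reg3g, Reg1 and Lypd8; list median 0.44). The median over all genes was -0.02. Against LFD sham all 6 top genes were again lower (list median -1.60), while of the bottom genes 2 were higher (Gsta1 and Lypd8) and 2 lower (Reg3b by a log2 ratio of -1.11 and Reg3g by -1.57). Summed, the top genes were at 2246, 1796 and 1019 CPM and the bottom genes at 29259, 10104 and 15766 CPM in villus-labelled LFD sham, HFD sham and HFD VSG. Their part in the higher Fabp6, Slc51a and Nr1h4 of HFD VSG villi was not tested. Within cluster 3 the surgery ratio in villus-labelled libraries was 0.82 for Fabp6 (0.71 to 0.92), 0.39 for Slc51a (0.29 to 0.49) and 0.55 for Nr1h4 (0.15 to 0.97). The Fabp6 ratio was 0.59 (0.47 to 0.71) without the richest cell of each library, and without the HFD VSG cell of 1221 UMIs the HFD VSG level was 393 CPM, where HFD sham was at 330 CPM with all its cells and 261 CPM without its own richest cell. In cluster 1 it was 1.60 for Fabp6, 0.07 for Slc51a and 0.18 for Nr1h4, in cluster 5 Slc51a was at -0.43, and over all epithelial cells the ratios were 0.95, -0.17 and 0.07. Among distal genes Cubn, the receptor for vitamin B12 with intrinsic factor, differed by -2.48 on the log2 scale in that comparison and Osr2 differed by 0.21, and among proximal genes Lct differed by -0.90 and Gata4 by -0.15.

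The wider bile acid and FXR list held 38 genes, 26 of them measured at this level in crypt-labelled and 25 in villus-labelled enterocyte-like cells. From LFD sham to HFD sham 1 gene was higher (Apoc2) and 4 lower (Nr1i2, Slco3a1, Cyp27a1 and Cyp3a11) by more than 0.5 in crypt-labelled libraries. In villus-labelled libraries 3 were higher (Nr1i3, Abcb1a and Apoc2) and 3 lower (Cyp27a1, Cyp3a11 and Nos2). From HFD sham to HFD VSG 4 were higher (Abcg8, Slco3a1, Apoc2 and Nos2) and 2 lower (Slco2b1 and Ang4) in crypt-labelled libraries, and 2 were higher (Rxrb and Slco2b1) and 7 lower in villus-labelled libraries. From LFD sham to HFD VSG 3 were higher (Abcc3, Apoc2 and Nos2) and 7 lower, then 4 higher (Rxrb, Abcc3, Slco2b1 and Apoc2) and 8 lower. The list medians were -0.08 and -0.02, 0.15 and -0.20, and -0.04 and -0.18, where all genes had medians of -0.02, 0.02, 0.13, -0.02, 0.10 and -0.00 in the same order. Of all genes 7.51 and 7.44%, 2.19 and 15.7%, and 4.72 and 19.5% were lower by more than 0.5 in the same order. Higher were 5.21 and 6.72%, 7.26 and 16.9%, and 10.3 and 21.9%. Lower genes were thus a larger part of the list than of all genes in each comparison, on 2 to 8 genes. Higher genes were a larger part in some comparisons and a smaller part in others. The difference was not tested, and the comparisons share libraries, so they are not independent. Ang4, also on the Paneth marker list, was among the lower genes in each comparison with HFD VSG. It was at 84, 74.9 and 14 CPM in villus-labelled LFD sham, HFD sham and HFD VSG. Paneth-like cells were 3.71, 5.65 and 1.1% of the cells there. The part of Paneth RNA in these Ang4 sums was not tested. Apoc2, an FXR-responsive apolipoprotein that activates lipoprotein lipase, was at 1818, 3622 and 5835 CPM in crypt-labelled and 1244, 2628 and 2206 CPM in villus-labelled LFD sham, HFD sham and HFD VSG, higher in both high-fat groups. Cyp3a11, which hydroxylates bile acids and drugs, ran the other way, at 1284, 419 and 357 CPM and 612, 370 and 111 CPM. Nr1i2, the pregnane X receptor that controls Cyp3a11, was at 92, 57.5 and 56.7 CPM and 78.3, 56.2 and 49 CPM, with LFD sham highest. Cyp27a1, an enzyme of the acidic pathway of bile acid synthesis, was at 71.7, 37.3 and 32.8 CPM and 39.4, 23.7 and 13.5 CPM. Genes of this list other than Apoc2, Cyp3a11 and the 4 with the most UMIs (Abcb1a, Abcc2, Sult1b1 and Sult2b1) were picked out after their values were seen.

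Among the other exporters on the list, Abcb1a, a multidrug efflux pump, was at 850, 985 and 722 CPM in crypt-labelled and 601, 941 and 370 CPM in villus-labelled LFD sham, HFD sham and HFD VSG, and Abcc2, which exports conjugates at the apical side, at 583, 461 and 531 CPM and 398, 429 and 283 CPM. Abcb1a was highest in HFD sham and lowest in HFD VSG under both labels, and Abcc2 was lowest in HFD VSG villi. Abcc3, a basolateral exporter, was at 11.8, 15.7 and 17.6 CPM and 17.8, 19.7 and 27.2 CPM, lowest in LFD sham and highest in HFD VSG under both labels. The sulfotransferases Sult1b1 and Sult2b1 stayed within 0.5 in all comparisons, at 608 to 803 CPM and 271 to 346 CPM. Rxra, the partner of FXR, was at 38 to 46.9 CPM. The enzymes of hepatic synthesis Cyp7a1, Cyp7b1 and Cyp8b1, the membrane bile acid receptor Gpbar1 and the hepatic carrier Slco1a4 had 0 UMIs in enterocyte-like cells of all 6 libraries, and Abcb11, the hepatic export pump, had 1.

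Likeness was measured as Pearson's correlation of log2(CPM + 1) over 52 sums of a class and a library, with 9801 genes compared, and describes a shared distribution over classes, since sums of one library share its depth and free RNA. Slc51a was most like Ces2e (r = 0.96), an enterocyte carboxylesterase, and Arg2 (0.949), and Slc51b was most like Maf (0.944), a transcription factor of the enterocyte. Nr1h4 was most like Twf1 (0.874) and Rnpep (0.873), Fabp6 like Sar1b (0.816), which acts in chylomicron transport, and Dhrs1 (0.805), and Slc10a2 like Mycbpap (0.747) and Ocm (0.746). Nr0b2 was most like Slc10a2 (0.761) and Fgf15 like Cyp4a10 (0.658), on few UMIs. Between members the closest were Slc51a and Slc51b (0.86), then Fabp6 and Slc51a (0.77). Spearman's correlation named the same closest gene for Slc51a, Slc51b and Nr0b2 and another for Slc10a2, Fabp6, Nr1h4 and Fgf15.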

How the data were processed

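Single-cell suspensions were profiled with 10x Genomics 3′ chemistry, and per the labels the authors made the matrices with Cell Ranger 6.0.0 and the mm10 genome. The deposited values were raw UMI counts per gene and barcode, in matrices of all barcodes and of called barcodes, with 1 library per group and label. Genes were matched by symbol. No column of other samples was present.

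Called barcodes with at least 750 genes and at most 20% mitochondrial UMIs were kept and barcodes scored as doublets against simulated mixtures were removed. Libraries were integrated and clustered in R 4.3.3 with Seurat 5.3.0 and sctransform 0.4.2 (2000 genes, 30 components, resolution 0.4), with the 7 genes and the pathway and segment lists left out. A cluster was named where at least 50% of a class's markers were at 2 times the median cluster and in 10% of cells; 2 further conditions, on marker level and on leading genes, were added after the clusters were seen and left clusters 6 and 18 unnamed. Raw counts were summed per class and library (Python 3.11.15, numpy 2.4.6, scipy 1.17.1, pandas 2.3.3) and divided by all UMIs of the sum to give CPM, with exact Poisson intervals, exact binomial intervals for shares, and conditional binomial intervals for ratios; sums under 3 UMIs entered log2 ratios as 3, while the folds printed for sums of 2 UMIs use the counts as they are. A log2 ratio beyond 0.5 was called. With 1 library per group no p-value was computed, and cells were not used as replicates. Doublet scoring and ratios were tested on simulated data. Starts and ends of genes are from GENCODE for GRCm38, promoters from RefSeq for GRCm38.p6.

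The members and gene lists were chosen with earlier results of these data known. Genes outside the 7 were named as the up to 6 of a list with the most UMIs in enterocyte-like cells, or as the 3 most alike, unless said otherwise. Alternatives were stricter gene and mitochondrial limits, doublets kept, resolution 0.8, thinning, 2 scalings, 2 free RNA subtractions, all epithelial cells and the largest cluster alone, and, added after the data were seen, clusters 3 and 1 alone, equal cluster weights and removal of the richest cell.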

Additional observations from a re-analysis of the deposited data

Results flagged for a closer look

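In 3 cases a ratio between groups lay on opposite sides of 0 in crypt-labelled and villus-labelled enterocyte-like cells, with counting intervals that excluded 0 under both labels. For Slc51a the HFD sham to LFD sham log2 ratio was 0.10 in crypt-labelled and -0.22 in villus-labelled libraries, a difference of 0.32. For Slc51a the HFD VSG to HFD sham ratio was -0.07 and 0.49, a difference of -0.56. For Nr1h4 the HFD VSG to LFD sham ratio was -0.25 and 0.48, a difference of -0.73. Each side is 1 library against 1 library, and the difference was not tested in any of the 3 cases. Over all epithelial cells the same ratios were -0.02 and 0.29, -0.03 and -0.17, and 0.07 and 0.16, so the villus-labelled Slc51a ratios changed direction there and Slc51a from HFD sham to HFD VSG and Nr1h4 lay on 1 side of 0 under both labels. In villus-labelled HFD VSG the villus top genes were also lower and the median depth of enterocyte-like cells higher than in the other libraries, and their part was not tested.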

How the results depend on the processing

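Of the members' recomputed log2 ratios 389 stayed within the counting interval of the reported value, 196 moved beyond it and 15 changed sign from a reported value beyond 0.5. In 3 of the 15 the sign was set by entering a sum under 3 UMIs as 3, and the counts themselves kept the reported direction. Ratios reported within 0.5 also changed sign and are counted by size only. Examples are Slc51a over all epithelial cells of villus-labelled libraries (diet from -0.22 to 0.29, surgery from 0.49 to -0.17), its crypt-labelled diet ratio in cluster 1 (0.10 to -0.76), the villus-labelled Slc51b surgery ratio over all epithelial cells (0.10 to -0.63) and Nr1h4 in HFD VSG to LFD sham crypt-labelled (-0.25 to 0.07). In crypt-labelled libraries the Fabp6 diet ratio (HFD sham to LFD sham) was -0.10 (-0.24 to 0.03) over all epithelial cells and -2.55 in cluster 1. Without the richest cells these were 0.46 and -1.43. In the largest enterocyte-like cluster it was -0.00 (-1.93 to 1.73), from 5 against 9 UMIs. In villus-labelled libraries it was -0.06 at resolution 0.8 and -0.67 in cluster 1, the latter -0.08 without the richest cells. The Slc10a2 diet ratio was -0.04 (-1.14 to 0.99) in the largest cluster and -0.99 (-1.65 to -0.35) in cluster 1, crypt-labelled. Slc10a2 in HFD VSG to LFD sham was -0.33 (-0.83 to 0.18) in cluster 1 crypt-labelled. Villus-labelled it was -0.04 (-0.36 to 0.28) over all epithelial cells and -1.03 (-1.72 to -0.33) in cluster 1. Fgf15 in HFD VSG to HFD sham was -0.62 (-1.93 to 0.70) crypt-labelled and -0.68 (-1.69 to 0.34) villus-labelled in cluster 1. Where an interval includes 0, no direction is shown. The 3 set by the limit were Fgf15 in HFD VSG to HFD sham after thinning, crypt-labelled (-0.29, from 4 against 0 UMIs), and Nr0b2 in HFD VSG to LFD sham, villus-labelled, under 10% mitochondrial UMIs (-1.45, from 8 against 0) and in cluster 1 (-0.97, from 4 against 1).

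Counts of members beyond 0.5 that moved by more than 1.5 times, or to or from 0, were as follows, and smaller moves are not listed. Among those counted as lower, Nr0b2 of villus-labelled HFD VSG was so only through the limit of 3 UMIs in 3 cases, both comparisons under 10% mitochondrial UMIs and that to LFD sham in cluster 1. With at most 10% mitochondrial UMIs, 1 and 2 were higher for diet (crypt-labelled, then villus-labelled), 4 and 1 higher with 1 and 2 lower for surgery, and 1 was lower in HFD VSG to LFD sham villus-labelled. Of all genes there, 6.89 and 12.9% were higher for diet. For surgery 9.88 and 20.6% were higher with 2.49 and 19.6% lower, and 20.2% were lower in HFD VSG to LFD sham villus-labelled. At resolution 0.8, 1 was higher for diet villus-labelled and 2 for surgery crypt-labelled, where 6.05 and 6.72% of all genes were higher. Over all epithelial cells, 2 and 1 were higher for surgery, 3 lower for surgery villus-labelled and 1 lower in HFD VSG to LFD sham villus-labelled. Of all genes there, 10.1 and 24% were higher for surgery. Lower were 22.5% for surgery villus-labelled and 24% in HFD VSG to LFD sham villus-labelled. In the largest cluster, 1 and 2 were higher and 1 crypt-labelled lower for diet, 2 lower for surgery villus-labelled and 2 higher in HFD VSG to LFD sham crypt-labelled. Of all genes there, 6.08 and 6.23% were higher and 6.77% crypt-labelled lower for diet. For surgery villus-labelled 15.5% were lower, and 8.23% were higher in HFD VSG to LFD sham crypt-labelled. In cluster 3, 2 were higher for surgery crypt-labelled and 0 lower villus-labelled, where 7.93% of all genes were higher and 18.8% lower. In cluster 1, diet had 2 higher villus-labelled with 4 and 2 lower, surgery 2 and 1 higher with 2 and 3 lower, and HFD VSG to LFD sham 1 and 2 higher with 2 and 3 lower. For these sets of cells, over the 6 comparisons, the share of all genes higher and lower by more than 0.5 was 6.89 to 27.4% and 2.49 to 20.2% with at most 10% mitochondrial UMIs, 5.71 to 19% and 2.35 to 18.9% at resolution 0.8, 4.34 to 24% and 1.92 to 24% over all epithelial cells, 6.08 to 15.1% and 2.72 to 17.2% in the largest cluster, 5.34 to 26.9% and 2.48 to 20.2% in cluster 3, and 5.65 to 24.3% and 2.86 to 21.7% in cluster 1. With equal cluster weights 2 and 4 were higher for surgery, and after thinning 0 were lower for surgery villus-labelled. No share of all genes was computed for equal weights or thinning. Members under the limit of 50 UMIs are in these counts of members but not in the shares. The cause was not tested, beyond that the restricted cell sets and thinning hold fewer UMIs by construction. The named class with the highest mean level of each member was the same with at least 1500 genes per cell, at most 10% mitochondrial UMIs, doublets kept or resolution 0.8. With the limit on genes raised from 50 to 200 UMIs the background shares were 3.89 and 6.41% higher with 4.44 and 3.66% lower for diet, 3.51 and 14.5% with 1.57 and 16.4% for surgery, and 8.4 and 22.3% with 3.57 and 18.5% for HFD VSG to LFD sham. Beyond 1 on the log2 scale they were 1.02 and 1.27% with 1.58 and 1.94%, 0.931 and 4.04% with 0.412 and 3.1%, and 1.38 and 6.03% with 1.26 and 5.15%.

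No paired analysis between groups was possible because each group has 1 library per label. The crypt- and villus-labelled libraries of a group share their mice, and for Fabp6 their ratio is given per group without a test. The main limits are that 1 pooled library stands for a group, that crypt and villus labels did not follow the markers, that a few cells supply most Fabp6 UMIs, and that sums of Nr0b2 and Fgf15 under 100 UMIs leave wide intervals.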

Other observations

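Nr1h4 was also seen outside enterocytes and their progenitors. In goblet-like cells it was at 18.7, 12.7 and 16.7 CPM in crypt-labelled and 25.1, 19.7 and 15.6 CPM in villus-labelled LFD sham, HFD sham and HFD VSG. In EEC-like cells, the hormone-secreting cells, it was at 21.4 to 35.8 CPM on 3 to 16 UMIs per library. Stem-like cells had 15.8 to 19.8 CPM and cycling progenitor-like cells 10.9 to 18.6 CPM. Paneth-like cells, which secrete antimicrobial peptides at the crypt base, had 0.77 to 3.71 CPM, the lowest of the named epithelial classes in every library but HFD sham crypts, where tuft-like cells had 0 UMIs in 13 cells. Paneth-like cells are dominated by defensin transcripts, which lowers the CPM of any other gene.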
